A study of Mus musculus with 6 samples.

Results

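The receptors of the cytokine BAFF, the receptor CD40 and the TRAF adaptors that work beneath them were followed in Eμ-Myc tumors with and without miR-146a. The 10 genes were chosen by name: the ligand Tnfsf13b (BAFF), its receptors Tnfrsf13c (BAFF receptor), Tnfrsf13b (TACI) and Tnfrsf17 (BCMA), the receptor Cd40, and the adaptors Traf1, Traf2, Traf3, Traf4 and Traf5. All 10 are among the 38293 genes of the deposited expression file. RNA was sequenced from 6 tumors of C57BL6 mice. All carried the Eμ-Myc transgene, in which the enhancer of the immunoglobulin heavy chain drives Myc in cells of the B lineage. The 4 miR-146a-sufficient (Eμ-Myc miR-146a+/+) tumors came from male mice. Sufficient 1 and sufficient 2 were neck node tumors taken at 18 and 16 weeks of age, and sufficient 3 and sufficient 4 were thymic tumors, both taken at 10 weeks. The 2 miR-146a-deficient (Eμ-Myc miR-146a-/-) tumors, deficient 1 and deficient 2, were thymic, taken at 11 and 10 weeks, from mice labelled female. miR-146a was deleted in the whole animal, so any other cell in a deficient tumor lacked it too. Genotype was thus confounded with labelled sex and, in part, with tumor site and age. Among the sufficient tumors, site and age cannot be told apart.

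BAFF is a survival factor of mature B cells and acts mainly through the BAFF receptor, while TACI and BCMA also bind the related ligand APRIL. CD40 receives the signal of CD40 ligand on helper T cells. Beneath the BAFF receptor and CD40, a complex of TRAF3, TRAF2 and the ubiquitin ligases cIAP1 and cIAP2 keeps the kinase NIK low, and engagement of the receptor removes TRAF3, so that NIK accumulates and the NF-kB2 precursor is processed. miR-146a is induced by NF-kB and is known to target the adaptors TRAF6 and IRAK1, which signal from other receptors and, in the case of TRAF6, from CD40 as well.

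The mature microRNAs are shown because the seed, bases 2 to 8 (in capitals), is what a target site pairs with. miR-146a-5p lies on the minus strand at chr11:43374435-43374456 of GRCm38.p6, and miR-146b-5p, encoded on another chromosome and left in place by the deletion, has the same seed. Both sequences are from RefSeq.
mmu-miR-146a-5p: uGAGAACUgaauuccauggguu
mmu-miR-146b-5p: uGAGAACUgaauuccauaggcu

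Matches to this seed were searched on the coding strand of the longest annotated 3′UTR, as AGTTCTC (pairing to bases 2 to 8), as GTTCTCA (pairing to bases 2 to 7, followed by an A) and as AGTTCTCA, which holds both. Of the 10 genes, 2 had a match, and of the 10703 tested genes with an annotated 3′UTR, 2140 did (20%). In Tnfrsf13b the match was at chr11:61148403-61148409 (GRCm38, plus strand), base 761 of a 3′UTR of 1730 bases. In Tnfsf13b it was at chr8:10038911-10038917 (plus strand), base 3470 of 3631. Both were of the GTTCTCA kind. The sites of Traf6, a TRAF gene outside the 10, are shown beside them because the 3′UTR of Traf6 held 4 matches of the longest kind within 4170 bases, the first pair at chr2:101697959-101697966 and chr2:101698023-101698030 (plus strand). Capitals mark the match.
Tnfrsf13b: gtgcccctGTTCTCAccattcat
Tnfsf13b: taacagggGTTCTCAaatttcaa
Traf6, first site: tggtgttgAGTTCTCAtttagttg
Traf6, second site: aaggcttaAGTTCTCAagtactcc

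The longest 3′UTRs of Tnfrsf13c, Tnfrsf17, Cd40, Traf1, Traf2, Traf3, Traf4 and Traf5, which ran from 116 bases (Tnfrsf17) to 5093 bases (Traf3), held none of these letters. A match of this kind is a description of the sequence, and binding was not measured.

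The file gives 1 RPKM value per gene and tumor (reads relative to gene length and sequencing depth). The gene lengths and depth scaling used are not given and could not be checked, so comparisons of level between genes hold only as far as these do. RPKM values summed to 675516 to 788919 in 5 tumors and to 1932926 in deficient 1, of which 1240070 was the gene Xist alone. The gene Mir146 was listed at 0 in all 6 tumors, so it could not check the genotype labels. The Y-linked gene Ddx3y was at 24.6 RPKM in deficient 2, against 17.9 to 23.0 in the sufficient tumors and 0.130 in deficient 1. Xist was at 1819 RPKM in deficient 2, inside the range of the sufficient tumors (1585 to 2203). Both values go against the label female of deficient 2. Results that rest on deficient 2 are therefore given with and without it. The B lineage markers Cd79a (388 to 550 RPKM) and Pax5 (22.6 to 37.8) were high in every tumor. Other genes of that list, outside the fixed names, varied more. Blk ran from 3.36 RPKM in sufficient 1 to 68.0 in deficient 1, and Ebf1 from 3.67 in deficient 2 to 15.5 in deficient 1. Nothing in the labels says more than that these were separate tumors, and the p-values below measure the spread between them. In bulk tumor RNA, fewer cells of a type and less RNA per cell cannot be told apart.

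TACI had the highest mean RPKM of the 10 RNAs and BCMA the lowest. Means over the 6 tumors were 38.3 RPKM for Tnfrsf13b, 24.7 for Tnfrsf13c, 18.6 for Traf5, 18.5 for Traf3, 14.3 for Traf4, 7.93 for Traf2, 1.77 for Cd40, 0.614 for Traf1, 0.233 for Tnfsf13b and 0.153 for Tnfrsf17. Most neighbors in this order overlapped. The lowest and highest tumors of one gene cleared those of the next only between Traf2 and Cd40 and between Traf1 and Tnfsf13b. Within a tumor, Tnfrsf13b was above Tnfrsf13c in 6 of 6, while Traf3 was above Traf4 in 3 of 6. TACI and the BAFF receptor thus had far higher RPKM than the ligand, and Cd40 lay well below both of them in every tumor.

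**Figure D1:**
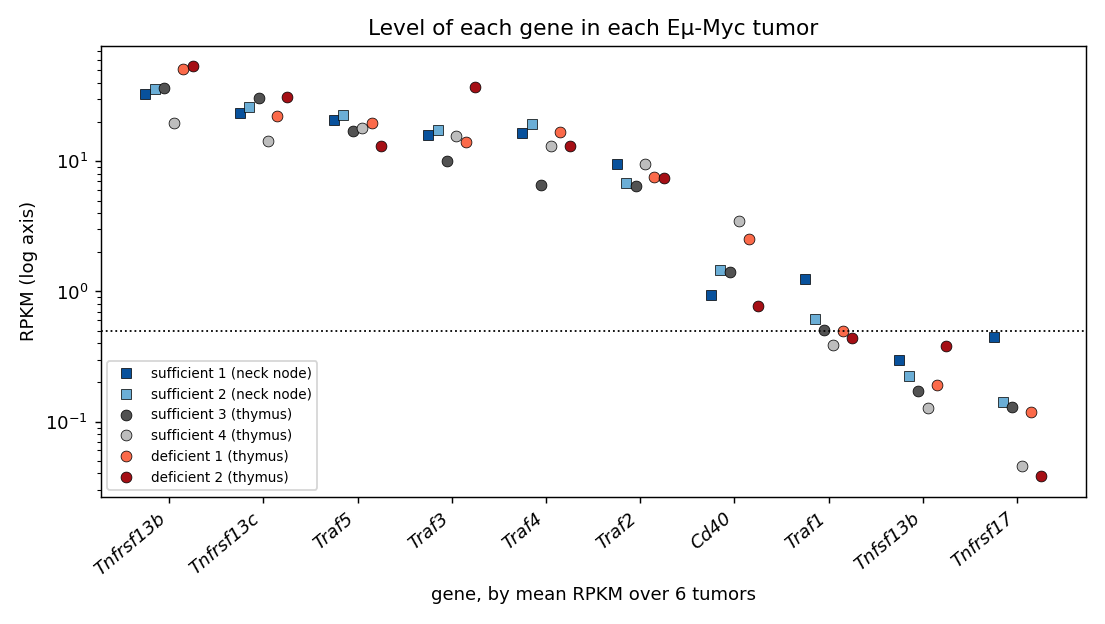
Level of each of the 10 genes in each tumor, in RPKM on a log axis, with genes ordered by their mean over the 6 tumors. Squares are neck node tumors and circles thymic tumors, blue and grey for miR-146a-sufficient, red for miR-146a-deficient, and the dotted line is the minimum of 0.5 RPKM. Both deficient tumors lie above all 4 sufficient tumors for Tnfrsf13b only, and deficient 2 stands alone for Traf3 at 37.6 RPKM.

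None of the 10 genes passed the test between genotypes. With limma on log2(RPKM + 1), 8 of the 10 met the filter of at least 0.5 RPKM in at least 2 tumors, and 0 of these 8 had an adjusted p under 0.05, where 0.0627% of the 12751 genes tested did. At an unadjusted p under 0.05 there was 1 of 8 (Tnfrsf13b), against 3.62% of all genes. Log2 differences, deficient minus sufficient, ran from -0.27 (Traf5) to 0.76 (Tnfrsf13b). They were positive in 4 genes and negative in 4, with a median of 0.051. The median over all tested genes was 0.13, and -0.014 after median-ratio scaling, so small positive differences are to be read against this shift. Tnfrsf17 and Tnfsf13b did not meet the filter and were not tested.

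**Figure D2:**
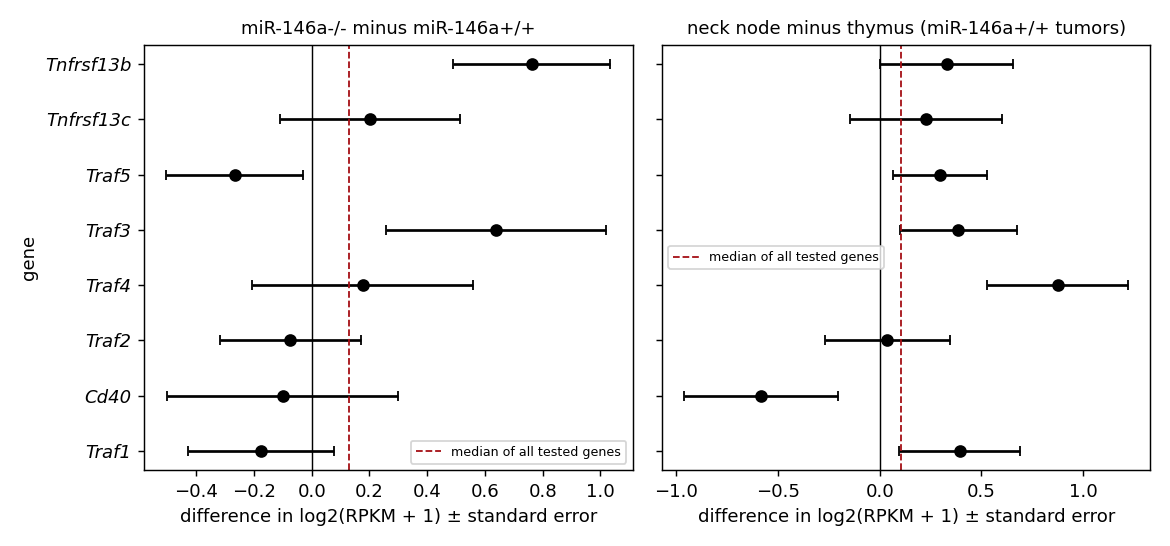
Difference in log2(RPKM + 1) of the 8 genes that met the filter, with bars of 1 standard error, for miR-146a-/- minus miR-146a+/+ tumors (left) and for neck node minus thymus among the 4 miR-146a+/+ tumors (right). The dashed line is the median of all tested genes (0.13 left, 0.10 right). Tnfrsf13b (0.76) and Traf3 (0.64) lie farthest to the right between genotypes, and Traf4 (0.88) does so between sites.

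The ligand BAFF was barely present as RNA. Tnfsf13b, made mainly by myeloid and stromal cells, measured 0.300, 0.225, 0.173 and 0.127 RPKM in sufficient 1 to 4 and 0.190 and 0.381 in the deficient tumors, which overlap. The low RPKM values of a tumor are whole multiples of a pair of step sizes, and the smallest whole reads that give all 6 values of Tnfsf13b are 6, 13, 4, 3, 9 and 13 in the same order. The 95% Poisson interval of the highest value, in deficient 2, ran from 0.203 to 0.651 RPKM, and that of the lowest, in sufficient 4, from 0.0262 to 0.372. These intervals cover counting error only and take the smallest solution as the reads. On those reads, a difference between tumors was not detectable. The related ligand APRIL (Tnfsf13) was also low, at 0.159 to 0.641 RPKM in the sufficient tumors and 0.264 and 0.455 in the deficient ones.

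TACI, which both BAFF and APRIL can engage, was the receptor whose groups separated. Tnfrsf13b measured 32.8, 35.7, 36.7 and 19.9 RPKM in sufficient 1 to 4. It measured 51.0 and 53.6 RPKM in deficient 1 and deficient 2. Both deficient tumors lay above every sufficient tumor, with means of 52.3 ± 1.82 (SD, n = 2) and 31.3 ± 7.77 RPKM (SD, n = 4). Among the 8 tested genes it was the only one with groups that did not overlap, where 9.15% of all tested genes were higher in both deficient tumors without overlap and 11.2% were apart in either direction. The log2 difference was 0.76 (standard error 0.27, unadjusted p = 0.0220, adjusted p = 0.893 from limma), so it did not pass. An exact two-sided permutation test over the 15 splits gave p = 0.133, the smallest that 4 against 2 tumors allow.

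The TACI difference was positive under each alternative run, from 0.57 without sufficient 4, the tumor with the lowest value, to 0.93 among thymic tumors only. Without deficient 2, whose sex label is in doubt, it was 0.73 (adjusted p = 1.00 from limma). The adjusted p ran from 0.545 to 1.00 over the 16 alternatives. Tnfrsf13b lies at chr11:61126755-61149372 (GRCm38, plus strand), on the chromosome of the deleted microRNA and 17.8 Mb away from it. The 10 tested genes flanking it, an equal number on each side, had a median difference from the sufficient mean of 0.12 in deficient 1. In deficient 2 that median was -0.0092, while Tnfrsf13b was at 0.73 in deficient 1 and 0.80 in deficient 2.

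Of 11 cell type marker lists, 4 had summed levels that did not overlap between genotypes. Summed over 8 macrophage genes, deficient 1 and deficient 2 held 84.1 and 120 RPKM, and the sufficient tumors 25.4 to 62.3. Of these 8 genes, 6 were higher in both deficient tumors without overlap, where 9.15% of all tested genes were, and 0 passed the adjusted threshold. C1qa was at 22.9 and 27.7 RPKM in the deficient tumors, both thymic. It was at 4.92 and 4.71 in the neck node tumors and at 9.25 and 15.1 in the sufficient thymic tumors. Csf1r overlapped, at 3.95 and 5.26 against 1.64 to 5.41. The 7 pro-B and pre-B genes, which mark immature stages of the B lineage, summed to 8.63 and 2.94 RPKM in deficient 1 and deficient 2 against 14.04 to 106. Only 1 of them was lower in both without overlap, Il7r, which is outside the fixed names, at 1.58 and 2.26 against 2.97 to 40.8. The separation of the sums rested on Il7r, which made up 10.9 of the 14.04 RPKM in sufficient 1, the lowest sufficient sum. The 9 T and NK cell genes summed to 13.1 and 17.2 RPKM against 18.5 to 58.6, with 2 lower in both without overlap. Of all tested genes, 2.09% were lower in both without overlap. Thymic epithelium genes were low throughout, at 0.998 and 2.32 RPKM summed against 0.129 to 0.906. None of these genes passed the adjusted threshold of limma, and the part of these cells in the TACI values was not tested. The summed B lineage markers overlapped, at 1955 and 1360 RPKM in deficient 1 and deficient 2 against 1321 to 1911 in the others.

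The BAFF receptor did not follow TACI. Tnfrsf13c, the receptor on which survival of mature B cells depends, measured 23.7, 26.0, 30.8 and 14.2 RPKM in sufficient 1 to 4 and 22.4 and 31.1 in the deficient tumors. The groups overlapped, and deficient 1 was below 3 of the 4 sufficient tumors. Its log2 difference was 0.20 (standard error 0.31, adjusted p = 0.911 from limma), and it turned to -0.014 without sufficient 4 and to -0.027 without deficient 2.

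The ratio of TACI to BAFF receptor RNA was nearly constant among the sufficient tumors. It was 1.39, 1.38, 1.19 and 1.40 in sufficient 1 to 4, although both RNAs were at their lowest in sufficient 4. It was 2.28 and 1.72 in deficient 1 and deficient 2. Both deficient tumors lay above the sufficient tumors, with means of 2.00 ± 0.393 (SD, n = 2) and 1.34 ± 0.0983 (SD, n = 4) and an exact two-sided permutation p of 0.133, the smallest possible. This ratio was chosen after its values were seen, and it does not depend on the scaling of a tumor.

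**Figure D3:**
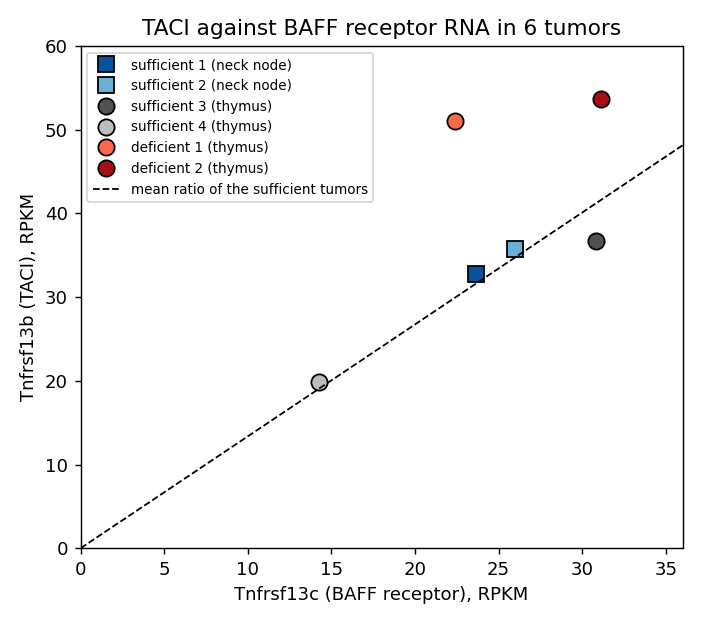
TACI (Tnfrsf13b) against BAFF receptor (Tnfrsf13c) RNA in RPKM, 1 point per tumor, where squares mark neck node tumors and circles mark thymic ones. The dashed line has the mean ratio of the 4 sufficient tumors (1.34), and both deficient tumors lie above it, at ratios of 2.28 and 1.72.

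BCMA, the receptor of plasma cells, was at the limit of detection. Tnfrsf17 measured 0.444, 0.141, 0.130 and 0.0456 RPKM in sufficient 1 to 4 and 0.118 and 0.0380 in the deficient tumors. The smallest whole reads that give these values are 8, 7, 3, 1, 5 and 1. The highest value was in sufficient 1. The summed plasma cell markers overlapped between genotypes, at 33.0 to 62.0 RPKM among sufficient tumors against 50.7 and 35.0, and most of that sum was Irf4 and Xbp1, which other B cells also express. Sdc1, also in the plasma cell list, was at 0.47 to 2.89 RPKM over the 6 tumors. Igj, another gene of that list and outside the fixed names, was highest in sufficient 1 as well. It was at 21.2 RPKM there and at 1.03 to 6.21 in the other 5 tumors.

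CD40 differed 4.51-fold between its highest and lowest tumor, more than any of the TRAF genes, and its groups overlapped. Cd40 measured 0.938, 1.47, 1.40 and 3.48 RPKM in sufficient 1 to 4 and 2.53 and 0.772 in deficient 1 and deficient 2. The highest and the lowest tumor were a sufficient and a deficient one, and the other deficient tumor was the second highest. The log2 difference was -0.10 (standard error 0.40, adjusted p = 0.967 from limma). The sign rested on single tumors, with 0.40 without deficient 2 and 0.15 without sufficient 4, and among thymic tumors only it was -0.39. Counting error was small on the smallest whole reads that give these values. The 367 reads of sufficient 4 gave a 95% Poisson interval of 3.13 to 3.85 RPKM, and the 118 reads of deficient 2 gave 0.639 to 0.924. Its ligand Cd40lg, a product of activated T cells, was at 0.670 RPKM in sufficient 1 and at 0.0270 to 0.148 in the other 5 tumors. Summed T and NK cell markers were also highest in sufficient 1, at 58.6 RPKM, against 13.1 to 40.8 in the others, and their part in the Cd40lg value was not tested.

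**Figure D4:**
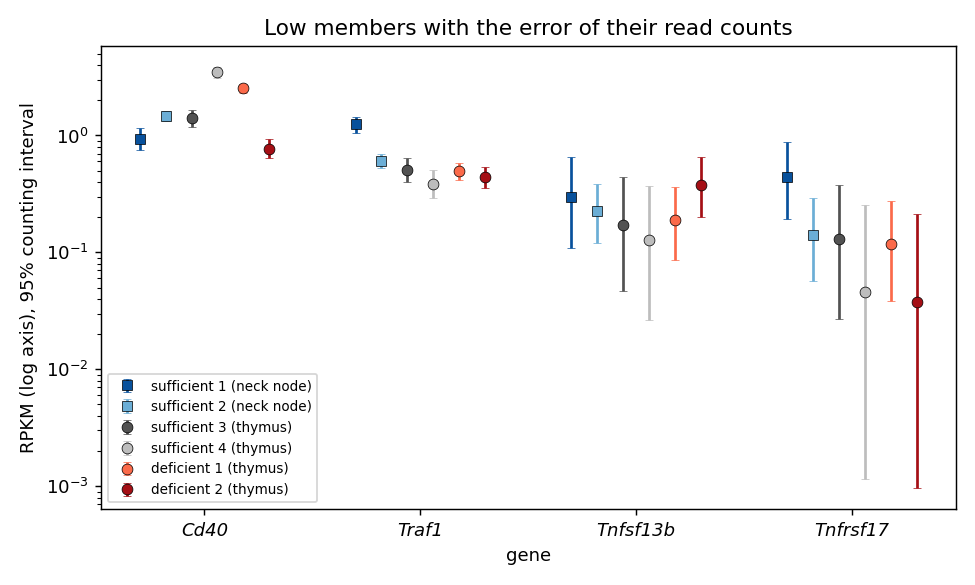
The 4 genes of lowest level, in RPKM on a log axis, with the 95% Poisson interval of the smallest whole reads that give each value, 1 point per tumor. Intervals of Tnfsf13b and Tnfrsf17 overlap between most tumors, while sufficient 4 (3.48 RPKM) and deficient 2 (0.772 RPKM) are well apart for Cd40.

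Among the adaptors, Traf3 had the widest range, and the range came from a single tumor. TRAF3 recruits the complex that degrades NIK and thereby restrains signalling from the BAFF receptor and CD40. Traf3 measured 16.1, 17.4, 10.0 and 15.7 RPKM in sufficient 1 to 4, 14.1 in deficient 1 and 37.6 in deficient 2. Deficient 1 lay inside the sufficient range and deficient 2 at more than any other tumor. The log2 difference between genotypes was 0.64 (standard error 0.38, adjusted p = 0.893 from limma). It was -0.037 without deficient 2 and 1.32 without deficient 1.

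The neighbors of Traf3 were high in the same tumor. Traf3 lies at chr12:111166370-111267153 (GRCm38, plus strand). Of the 10 tested genes flanking it, 5 on each side, 9 were above the sufficient mean in each deficient tumor. Their median log2 difference was 0.67 in deficient 2 and 0.074 in deficient 1. The transcriptional corepressor gene Rcor1 was at 45.2 RPKM in deficient 2 and at no more than 24.2 in a sufficient tumor, and the translation factor gene Eif5 at 192 against 106 to 133. Both were chosen after their values were seen. The shift was not local: over the 447 tested genes of chromosome 12, the median in deficient 2 was 0.58, with 83.4% of genes above the sufficient mean, the highest median of the 20 chromosomes compared. The median of all tested genes in that tumor was 0.18. In deficient 1 the median of chromosome 12 was 0.033, which ranked 17 of 20. Shifts of whole chromosomes were not limited to this one. Chromosome 3 of deficient 2 had a median of 0.47, with 79.9% of its 581 genes above the sufficient mean. Set against the mean of the other 5 tumors and centred on the median of its own genes, chromosome 7 of sufficient 4 was at -0.49, where chromosome 12 of deficient 2 was at 0.41. In bins of 10 Mb along the chromosome the median of deficient 2 ran from 0.17, in a bin of 10 genes, to 0.72. DNA copy number was not measured, and the part of the chromosome-wide shift in the Traf3 value was not tested.

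**Figure D5:**
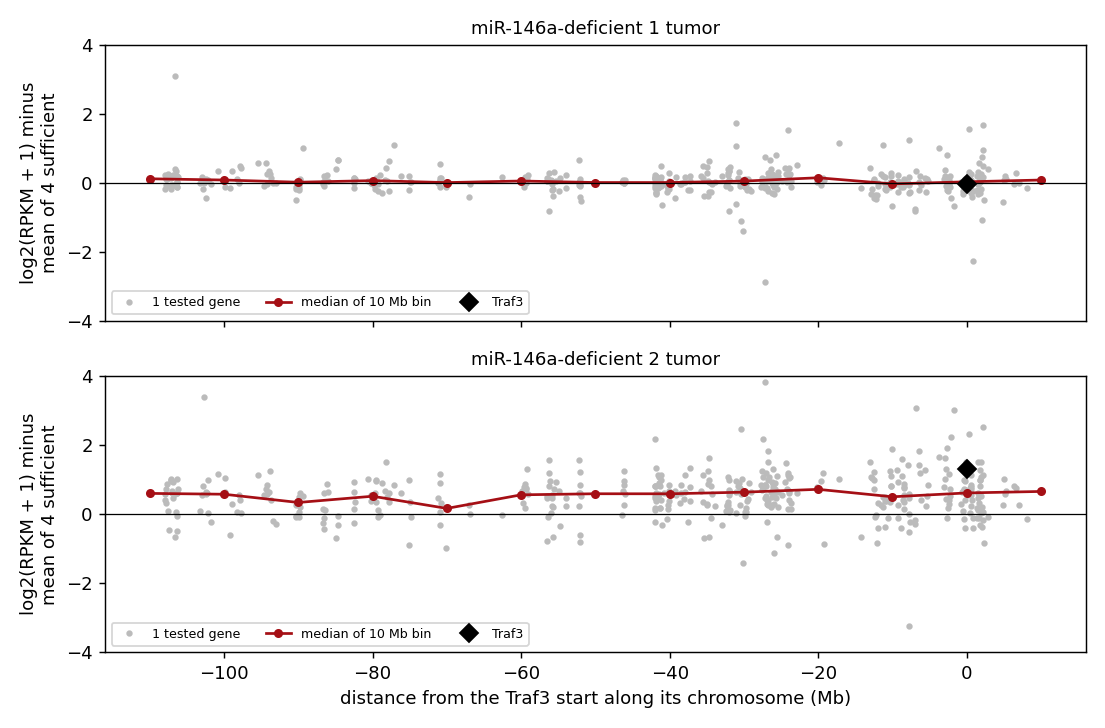
Difference in log2(RPKM + 1) from the mean of the 4 sufficient tumors for each of the 447 tested genes of chromosome 12, against distance in Mb from the start of Traf3, in deficient 1 (top) and deficient 2 (bottom). Grey points are genes, red points medians of 10 Mb bins and the black diamond Traf3, which lies at -0.037 in the top panel and 1.32 in the bottom panel, where the bin medians run from 0.17 to 0.72.

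Traf2, the partner of TRAF3 in the same complex, was the steadiest of the 10 genes, with 1.48-fold between its highest and lowest tumor. It measured 9.60, 6.84, 6.51 and 9.51 RPKM in sufficient 1 to 4 and 7.61 and 7.48 in the deficient tumors, both inside the sufficient range. Its log2 difference was -0.075 (standard error 0.24, adjusted p = 0.956 from limma). Per unit of Traf2, Traf3 was at 1.54 to 2.55 in the sufficient tumors, 1.85 in deficient 1 and 5.02 in deficient 2.

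Traf5, an adaptor of CD40 and of other receptors of the TNF family, measured 20.9, 22.8, 17.0 and 18.1 RPKM in sufficient 1 to 4, 19.8 in deficient 1 and 13.1 in deficient 2. Deficient 2 was the lowest tumor. The log2 difference of -0.27 (standard error 0.24, adjusted p = 0.893 from limma) became 0.012 without deficient 2. Traf1, a gene that NF-kB induces, measured 1.24, 0.610, 0.509 and 0.386 RPKM in the sufficient and 0.495 and 0.441 in the deficient tumors. Sufficient 1 alone was above 1 RPKM, with 158 reads in the smallest solution and a 95% Poisson interval of 1.06 to 1.45. The difference was -0.18 (standard error 0.25, adjusted p = 0.907 from limma), and -0.030 without sufficient 1.

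Traf4, a member of the family with roles outside lymphocyte receptors, varied mainly among the sufficient tumors. It measured 16.7, 19.4, 6.59 and 13.1 RPKM in sufficient 1 to 4 and 16.8 and 13.1 in the deficient tumors. Sufficient 3 was the low tumor, and both deficient tumors lay inside the sufficient range. The log2 difference between genotypes was 0.18 (standard error 0.38, adjusted p = 0.935 from limma). It was -0.12 without sufficient 3, 0.0060 without deficient 1 and 0.35 without deficient 2. Among thymic tumors only, where site is matched, it was 0.61 (adjusted p = 0.662 from limma).

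Tumor site was compared within 1 genotype, as neck node minus thymus among the 4 sufficient tumors, which are also the controls of the genotype comparison. The neck node tumors were taken at 18 and 16 weeks and both thymic tumors at 10 weeks, so each difference is one of site and age together. No adjusted p from limma was under 0.05 in the 8 genes tested (0 of 8, where 0.155% of 12255 genes passed), and 1 had an unadjusted p under 0.05 (7.87% of all). Traf4 had the largest difference, 0.88 (standard error 0.35, unadjusted p = 0.0420, adjusted p = 0.621 from limma), which was 0.43 without sufficient 3 and 1.32 without sufficient 4. Differences were positive in 7 of 8 genes, with a median of 0.31 against 0.10 over all genes. Traf1, Traf3, Traf4 and Traf5 were higher in both neck node tumors than in both thymic tumors, 4 of 8 genes, where 27.9% of all tested genes were and 40.4% were apart in either direction. Cd40 alone was lower on average in neck nodes, at -0.58 (adjusted p = 0.701 from limma), or -0.13 without sufficient 4 and -1.03 without sufficient 3, and its values overlapped between sites. Neutrophil markers followed site as well, at 1548 and 1580 RPKM summed in the neck node tumors and 196 and 231 in the sufficient thymic tumors, with S100a8 at 693 and 656 against 103 in each thymic tumor. The part of these cells in the Traf values was not tested.

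The genes that work beside the 10 did not pass the test either. Of 28 further ligands, receptors, TRAF partners and regulators of the NIK pathway, 24 were tested between genotypes and 0 had an adjusted p under 0.05 from limma, or an unadjusted p under 0.05. Differences were positive in 14 and negative in 10, with a median of 0.11. The largest was that of lymphotoxin beta, a ligand of the TNF family: Ltb measured 10.8, 4.58, 2.63 and 32.7 RPKM in sufficient 1 to 4 and 2.44 and 2.03 in the deficient tumors. Both deficient tumors were the lowest, at a difference of -1.55 (standard error 0.76, adjusted p = 0.893 from limma), and sufficient 3 was close to them. Of the 24, 1 was lower and 1 higher in both deficient tumors without overlap, where 2.09% and 9.15% of all tested genes were. The higher one was Traf3ip2, the adaptor of the IL-17 receptor, at 7.43 and 8.22 RPKM against 4.65 to 6.98 (difference 0.40). The other genes with the largest differences were Traip (0.66), Traf3ip1 (0.63), Cd27 (-0.60) and Nfkb2 (-0.45). Cd27, a TNF receptor of memory B cells and T cells, was at 0.541 to 2.59 RPKM in sufficient tumors and 0.742 and 0.583 in deficient ones.

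The kinase and transcription factors at the end of the pathway gave no separation between genotypes. Map3k14, which encodes NIK, was at 1.87 to 3.73 RPKM in the sufficient tumors and 2.62 and 3.26 in the deficient ones (difference 0.11). Birc3 (cIAP2) was at 9.09 to 24.7 against 10.6 and 14.9 RPKM (difference -0.22), and Relb, the partner of NF-kB2, at 1.20 to 2.62 against 1.23 and 1.70 (difference -0.071). Nfkb2 was at 2.26 to 8.56 against 3.19 and 2.21 RPKM. Traf6, whose 3′UTR holds the 4 matches described above, was at 8.03, 8.40, 9.90 and 10.7 RPKM in the sufficient tumors and 8.78 and 11.3 in the deficient ones, a difference of 0.11 (standard error 0.23, adjusted p = 0.935 from limma). One deficient tumor lay inside and the other just above the sufficient range.

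The genes whose pattern was most like that of Traf3 and Traf4, which had the widest ranges on the log2 scale (1.81 and 1.43), were found by Pearson correlation of log2(RPKM + 1) over the 6 tumors. For Traf3 they were 1810043G02Rik (r = 0.999), 4632404H12Rik (0.998) and Klhdc10 (0.997), and 794 tested genes exceeded 0.9. For Traf4 they were Iars (0.985), L3mbtl3 (0.985) and Cmip (0.982), and 230 exceeded 0.9. With 6 points that share their libraries, and with 1 tumor far from the rest for Traf3, these values are descriptions only.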

How the data were processed

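RNA of 6 tumors was measured by single-end RNA-sequencing. For alignment the authors used STAR 2.3.0 on mouse genome GRCm38, and for counts per gene HTSeq 0.5.4p3 with Ensembl models. They tested the counts with DESeq (1.12.1 in the processing notes of the submitters). The deposited values are RPKM, whose gene lengths and depth scaling are not given in the sources used here. RPKM was tested as log2(RPKM + 1) with limma 3.58.1 (R 4.3.3, trend prior) over genes with at least 0.5 RPKM in at least 2 tumors of the fit, with Benjamini-Hochberg adjustment over all of them and a threshold of 0.05. The log2(RPKM + 1) scale understates changes of low genes. Exact two-sided permutation tests used SciPy 1.17.1.

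Whole reads behind low RPKM values were solved from their steps, within a relative tolerance of 5e-06. The steps of a tumor came in a pair, and the labels give 2 technical replicates per tumor. Of 1000 low genes tried, 87.9% were given by whole reads in all 6 tumors. One read was worth 2.72 times as much RPKM in sufficient 1, the shallowest library, as in sufficient 2, the deepest. No count model was run.

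Coordinates and 3′UTRs are from GENCODE M21 on GRCm38, an annotation newer than that of the authors. Named genes are the 10 genes; of the 28 pathway genes the 6 with the largest differences, those past the threshold and 7 fixed names; fixed cell type markers, of which 1 is not reported here; and the 3 genes most like the 2 widest-ranging of the 10. Genes outside this rule are said to be so or are given for a check. The 10 genes, the lists and the alternatives were chosen with earlier results of these data known. limma was tested on simulated data of 12751 genes. With 4 against 2 tumors it called 16.8% of the 2-fold changes put in and 74.4% of the 4-fold changes. A gene that did not pass may thus still differ by 2-fold. Alternatives changed the filter, pseudocount, scaling, prior, covariates and tumors.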

Additional observations from a re-analysis of the deposited data

How the results depend on the processing

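None of the 8 tested genes had an adjusted p under 0.05 in either comparison under any alternative run with limma. Between genotypes, 1 (Tnfrsf13b) had an unadjusted p under 0.05 with all tumors, and 0 did after median-ratio scaling or without deficient 2. Over all genes, 8 passed between genotypes, 3 with tumor site as a covariate, 3 among thymic tumors only and 4 to 9 when 1 tumor was left out (4 without sufficient 3, 5 without either deficient tumor). Between sites, 19 passed, 11 after quantile normalization, 0 with no filter (943 higher and 445 lower at an unadjusted p under 0.05) and 11 to 67 when 1 tumor was left out (32 without sufficient 1, 67 without sufficient 2, 11 without sufficient 4).

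The replicate numbers only name the tumors: deviations of same-numbered tumors correlated at 0.019 and 0.21 across genes. With the replicate block, in which only the neck node tumors stand against the deficient ones, 1 gene passed, Tnfrsf13b was at 0.60 (adjusted p = 0.693 from limma), Cd40 at 0.19 and Traf4 at -0.26.

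Signs turned between genotypes in 12 of 126 values and between sites in 6 of 87. When 1 tumor was left out, differences between genotypes ran from -0.027 (without deficient 2) to 0.43 for Tnfrsf13c, from -0.60 to 0.40 (without deficient 2) for Cd40, from -0.16 to 0.0041 (without sufficient 1) for Traf2, from -0.037 (without deficient 2) to 1.32 for Traf3, from -0.12 (without sufficient 3) to 0.36 for Traf4 and from -0.54 to 0.012 (without deficient 2) for Traf5. With site as a covariate Traf1 was at 0.021. Between sites they ran from -0.30 to 0.76 for Tnfrsf13c and from -0.097 to 0.75 for Tnfrsf13b, both lowest without sufficient 4, and from -0.21 to 0.28 for Traf2, which was at -0.088 with median-ratio scaling and -0.11 with quantile normalization. The cause was not tested. Depth limits Tnfsf13b and Tnfrsf17, which rest on at most 13 reads per tumor in the smallest solution.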
